A study of Mus musculus with 11 samples.

Results

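The unfolded protein response genes described here are Xbp1, Ern1, Atf6, Herpud1, Pdia4, Pdia6, Sdf2l1, Calr, Canx and Creld2. They are 10 of the 55414 genes in the deposited gene table. They were chosen by name for their function, but with earlier results of these data known. Comparisons of their counts and medians with all genes are therefore descriptions only. All 10 passed the filter on low counts, which left 22238 genes for testing. RNA was sequenced in bulk from CD8+ T cells of OT-I mice, whose transgenic T cell receptor recognises an ovalbumin peptide, at 12 h. The naive group (4 libraries) was left untreated. The stimulated group (4 libraries) received DMSO, the solvent, together with the peptide N4. The Torin group (3 libraries, numbers 1, 3 and 4) received N4 and Torin, which inhibits mTOR, a kinase that couples nutrients and receptor signals to growth. All groups share the OT-I genotype, and no group received DMSO or Torin without N4. The age of the mice, the number of mice, and whether libraries came from separate animals are not given in the sources used here, and the p-values below therefore reflect the scatter of these samples alone, which may be technical.

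The endoplasmic reticulum (ER) folds secreted and membrane proteins. When unfolded proteins accumulate there, sensors in its membrane start the unfolded protein response. IRE1, encoded by Ern1, cuts the Xbp1 messenger RNA so that it encodes an active transcription factor. ATF6 moves to the Golgi apparatus, where proteases release a fragment that acts as a transcription factor. PERK, encoded by Eif2ak3, slows translation and favours ATF4. The factors raise chaperones, disulfide isomerases and the machinery that returns misfolded proteins to the cytosol for degradation. In lymphocytes the response is best known from plasma cells, which secrete antibody, and XBP1 and IRE1 are also active in CD8+ T cells responding to infection.

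ATF6 and XBP1 are known to act through the ER stress response element (ERSE), which is CCAAT, 9 bases of any kind and CCACG, and through a shorter element, ERSE-II, which is ATTGG, 1 base of any kind and CCACG. RefSeq promoter windows of 300 bases (GRCm38.p6, from 250 bases before the annotated start) were found for 9 of the 10 genes, and were searched on both strands. Calr, Canx, Creld2 and Pdia6 held an ERSE and Herpud1 an ERSE-II. Among all 32851 windows, 0.119% held an ERSE and 0.0365% an ERSE-II. The 250 bases before the start are shown for these 5 genes, 5′ to 3′ on the strand of the gene, because each holds 1 of these elements, an ERSE in 4 genes and the ERSE-II in Herpud1. Capitals mark the element, which reads in the opposite direction in Calr and Creld2. The stretches lie at chr8:84846932-84847181 (minus strand, Calr), chr11:50325674-50325923 (minus strand, Canx), chr15:88819396-88819645 (plus strand, Creld2), chr8:94386179-94386428 (plus strand, Herpud1) and chr12:17266339-17266588 (plus strand, Pdia6) of GRCm38.p6.
Calr: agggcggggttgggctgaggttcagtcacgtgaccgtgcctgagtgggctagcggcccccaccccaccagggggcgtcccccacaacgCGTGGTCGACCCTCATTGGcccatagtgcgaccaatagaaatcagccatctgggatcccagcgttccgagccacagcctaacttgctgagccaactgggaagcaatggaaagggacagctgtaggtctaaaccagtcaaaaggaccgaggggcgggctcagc
Canx: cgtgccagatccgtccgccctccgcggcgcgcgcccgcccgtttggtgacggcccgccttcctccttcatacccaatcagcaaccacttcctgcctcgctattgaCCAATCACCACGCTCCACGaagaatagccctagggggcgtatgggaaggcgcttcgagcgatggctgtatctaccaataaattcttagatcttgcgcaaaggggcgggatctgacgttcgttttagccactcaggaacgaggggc
Creld2: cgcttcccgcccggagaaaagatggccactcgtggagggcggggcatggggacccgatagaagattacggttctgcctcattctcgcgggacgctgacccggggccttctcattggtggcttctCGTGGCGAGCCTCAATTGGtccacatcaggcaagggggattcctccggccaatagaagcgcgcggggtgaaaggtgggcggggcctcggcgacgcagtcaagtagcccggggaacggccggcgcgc
Herpud1: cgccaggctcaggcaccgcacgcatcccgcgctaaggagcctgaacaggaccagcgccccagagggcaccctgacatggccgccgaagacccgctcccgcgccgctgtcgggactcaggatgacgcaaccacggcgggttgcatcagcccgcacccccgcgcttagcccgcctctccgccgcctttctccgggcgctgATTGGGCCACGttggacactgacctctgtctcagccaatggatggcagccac
Pdia6: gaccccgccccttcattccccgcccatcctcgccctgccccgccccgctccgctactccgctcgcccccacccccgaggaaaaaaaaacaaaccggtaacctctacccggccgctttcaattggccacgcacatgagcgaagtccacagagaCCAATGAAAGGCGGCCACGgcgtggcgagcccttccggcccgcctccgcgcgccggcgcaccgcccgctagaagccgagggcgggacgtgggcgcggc

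The ERSE began 162 bases before the start in Calr, 145 in Canx, 126 in Creld2 and 98 in Pdia6, counted to its end farther from the gene, and the ERSE-II of Herpud1 began 52 bases before it. CCAAT occurred in the windows of 7 of the 9 genes and of 37.4% of all windows, and CCACG in 8 of the 9 and in 32.8% of all windows. These counts include the copies inside the elements. The core of the unfolded protein response element, TGACGTGG, another XBP1 target sequence, was found in 0 of the 9 windows and in 0.676% of all windows. A match describes these letters only, and the data hold no measurement of binding.

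**Figure D1:**
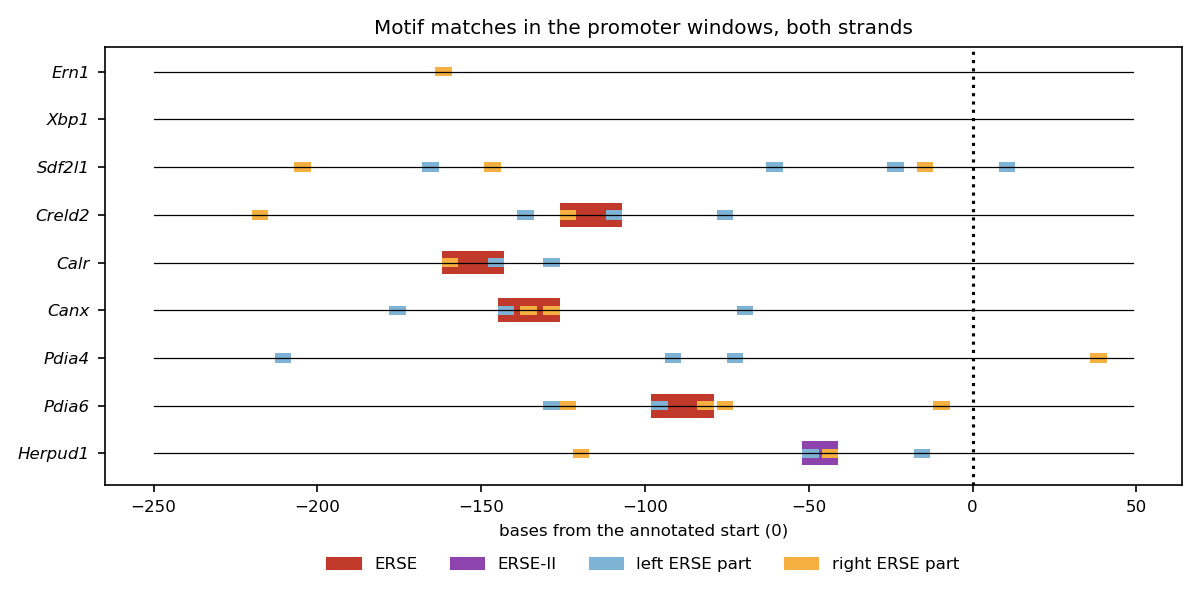
Positions of motif matches in the promoter windows of 9 genes, in bases from the annotated start (dotted line); tall red and purple blocks are ERSE and ERSE-II, and short blue and orange blocks are every copy of their left part (CCAAT) and right part (CCACG). Elements are seen in Calr, Canx, Creld2 and Pdia6 between 162 and 80 bases before the start and in Herpud1 at 52 bases.

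The total of estimated counts per library ranged from 241865667 to 405884097. Why they are this large is not given in the sources used here, and since estimated counts are not reads, counting intervals are left out. Levels are given as CPM, the usual count scaled to library size, here after composition factors. All 10 markers of CD8 T cells were detected in every library, and their sum ranged from 5579 to 6918 CPM in naive libraries, from 2652 to 3399 CPM in stimulated ones and from 4466 to 4746 CPM under Torin. Against naive cells 5 of the 10 were called lower and 1 higher in stimulated cells, and 3 lower and 2 higher with Torin. The 16 B cell and plasma cell markers summed to 48350 CPM for naive 4, to 14670 CPM for stimulated 4 and to 13510 CPM for Torin 4. No other library passed 377 CPM. Igkc, an immunoglobulin light chain gene, made up most of it, and Pax5 and Cr2 were at 0 in naive 4. The 17 myeloid and granulocyte markers reached 10640 CPM for naive 2 and 2144 CPM for stimulated 2, against 243.9 to 373.6 CPM for the other naive, 22.2 to 58.4 CPM for the other stimulated and 26.1 to 57.3 CPM for the Torin libraries. They were thus lower in the stimulated library of all 4 numbers, and 4 of the 17 (Lyz1, Lyz2, Mpo and Elane) fell in stimulated and 7 in Torin against naive cells. Of all genes tested, 20.2% and 15.8% were called lower in these comparisons, and 4 of 17 is near the first share. The part of these marker transcripts in the changes against naive cells was not tested. NK cell markers (6 genes) summed to 1017 CPM in naive 2, of which Tyrobp, also a myeloid gene, gave 1005 CPM, and the other 5 were each higher in naive 4 than in naive 2. Dendritic cell markers (7 genes) summed to at most 13.7 CPM in any library. In these bulk samples, fewer cells of a type and less RNA per cell cannot be told apart.

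Per kilobase of exon, the chaperone cofactor gene Sdf2l1 stood highest of the 10 genes in every group, at a mean of 101 CPM per kilobase in naive, 225 in stimulated and 67.9 in Torin libraries. Calr followed with 35.6, 54.2 and 56.4. Creld2 was next in naive and stimulated libraries, at 23.6 and 53.1, and stood at 37.1 with Torin. Pdia6 stood at 16.5, 39.4 and 38.3, above Creld2 with Torin. Xbp1 stood at 20.7, 27.1 and 25.9. The sensor genes lay far lower, with Atf6 at 0.222, 0.431 and 0.451 and Ern1 at 0.192, 0.0775 and 0.104 CPM per kilobase. The order between genes is a description, and neighbours in it were not tested against each other.

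In stimulated cells 7 of the 10 genes rose against naive cells, namely Pdia6, Creld2, Sdf2l1, Canx, Atf6, Pdia4 and Calr, by 1.52-fold to 2.38-fold. Of all genes tested, 39.5% were called in this comparison (19.2% higher and 20.2% lower; edgeR quasi-likelihood test, Benjamini-Hochberg adjusted p under 0.05). Calls were more frequent among well-expressed genes. Of the 8550 genes with a mean of at least 5 CPM, tested alone, 5881 were called, 47.2% of these being higher. Ern1 fell, and Xbp1 and Herpud1 did not pass. The median log2 change of the 10 genes was 0.96, against -0.22 for all genes tested. With library totals alone in place of composition factors, the median of all genes moved to -0.71, and 3 of the 7 (Pdia6, Canx and Creld2) stayed past the threshold.

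With Torin during stimulation, 2 of the 10 genes fell against stimulated cells, Sdf2l1 by 3.32-fold and Herpud1 by 3.19-fold. In that comparison 4.62% of all genes were called (2.32% higher and 2.3% lower). Of the 8550 genes with a mean of at least 5 CPM, tested alone, 1378 were called, a larger share, 49.64% of these being higher. No gene of the 10 was called higher by edgeR or by DESeq2, and 0 were higher at an unadjusted p under 0.05. Below the unadjusted threshold 4 were lower, Creld2 and Pdia4 being added, and DESeq2 called 3, with Pdia4 added. The median log2 change of the 10 genes was -0.05, against -0.02 for all genes. Both comparisons use the stimulated libraries, so their values are set side by side and no relation between them is given.

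**Figure D2:**
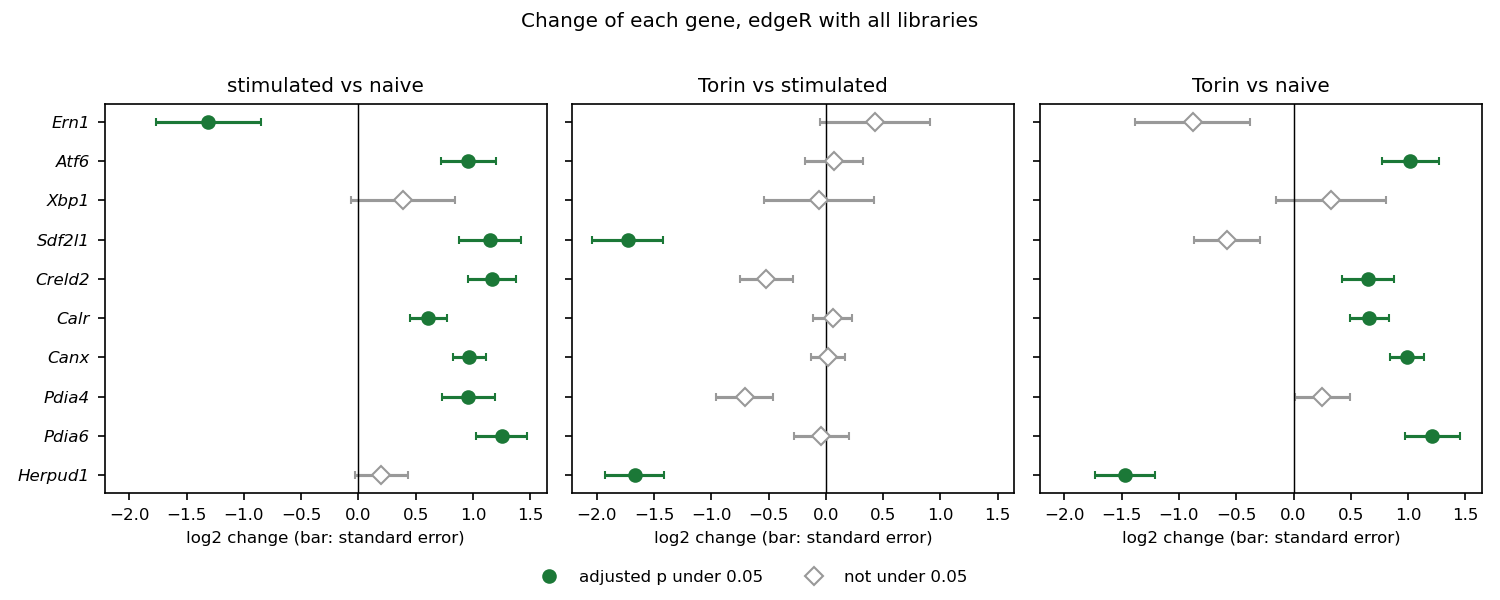
Log2 change (horizontal axis, bars are standard errors) of the 10 genes in 3 comparisons, with filled circles for an adjusted p under 0.05 and open diamonds for the others. Under stimulation 7 genes lie right of 0 as filled circles, while under Torin against stimulated cells Sdf2l1 (-1.73) and Herpud1 (-1.67) lie to the left and Calr, Canx, Pdia6 and Xbp1 lie within 0.06 of 0, where leaving out libraries or another scaling turns their sign.

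Among the sensors, Ern1 (ENSMUSG00000020715), the gene of IRE1, stood at 0.528, 2.57, 1.02 and 2.15 CPM in naive 1 to 4, at 0.599, 0.615, 0.567 and 0.753 CPM in stimulated 1 to 4, and at 0.791, 0.768 and 1 CPM in Torin 1, 3 and 4. Naive 2 and naive 4, the libraries with the most myeloid and plasma cell transcripts, were the highest, and naive 1 was below all stimulated libraries. The log2 change was -1.31 (SE 0.46, adjusted p = 0.0417) in stimulated against naive cells, with the groups overlapping and 3 of 4 numbers lower. The call ended without the filter (-1.32), with only both groups in the fit (-1.26), with the replicate number as a block (-1.11, adjusted p = 0.0706), without all libraries of number 4 (-1.11) or number 2 (-0.95), without naive 2 (-0.97) or naive 4 (-1.12), without stimulated 1, 2, 3 or 4 (-1.28, -1.29, -1.19 and -1.4), and without Torin 1, 3 or 4 (-1.3, -1.31 and -1.22). Torin libraries lay above all stimulated ones without passing the test (log2 change 0.43, SE 0.48, adjusted p = 0.703).

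Atf6 (ENSMUSG00000026663), the gene of the ATF6 sensor, stood at 1.44, 2.23, 2.32 and 2.2 CPM in naive 1 to 4 and at 3.55, 4.39, 4.61 and 3.34 CPM in stimulated 1 to 4. Every stimulated library was above every naive one, and the log2 change was 0.96 (SE 0.24, adjusted p = 0.00752). In Torin 1, 3 and 4 it stood at 3.14, 4.73 and 4.62 CPM, which overlapped the stimulated range (log2 change 0.07, SE 0.25, adjusted p = 0.938). Against naive cells the Torin group was higher by 1.02 on the log2 scale (SE 0.25, adjusted p = 0.00934). Scaling by library totals alone gave 0.47 under stimulation, which did not pass.

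Xbp1 (ENSMUSG00000020484), the factor gene whose RNA IRE1 cuts, stood at 58.8, 47.8, 37.3 and 124 CPM in naive 1 to 4. The stimulated libraries held 104, 83.4, 43.1 and 121 CPM, and Torin 1, 3 and 4 held 72.2, 47.0 and 133 CPM. The libraries of number 4, which hold the plasma cell transcripts, were the highest of their group in all 3 groups, and those of number 3 were the lowest. Xbp1 did not pass in any comparison, with log2 changes of 0.39 (SE 0.45, adjusted p = 0.526) in stimulated against naive, -0.06 (SE 0.48, adjusted p = 0.972) in Torin against stimulated and 0.33 (SE 0.48, adjusted p = 0.652) in Torin against naive cells. Stimulation gave a higher level in 3 of 4 numbers, number 4 being the exception. Without the libraries of number 4 the log2 change was 0.78 (adjusted p = 0.123), and with library totals alone it was -0.04, so its direction depended on the scaling. The part of plasma cell transcripts in these levels was not tested.

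Cut and uncut Xbp1 RNA could not be told apart. The transcript table held 4 Xbp1 transcripts that matched the annotation, and 0 of them lacked a short stretch such as IRE1 removes. The full-length protein-coding transcript ENSMUST00000063084 took 95.1 ± 0.7% of Xbp1 counts in naive (SD, n = 4), 94.5 ± 1.3% in stimulated (SD, n = 4) and 94.1 ± 2.6% in Torin libraries (SD, n = 3). Xbp1 levels here are therefore levels of its total RNA.

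Sdf2l1 (ENSMUSG00000022769) encodes an ER-resident cofactor of the BiP chaperone system. It stood at 94.7, 168, 81.1 and 105 CPM in naive 1 to 4 and at 277, 222, 161.5 and 337 CPM in stimulated 1 to 4. Stimulated 3 was slightly below naive 2, the library with the most myeloid transcripts, and the stimulated library was higher in all 4 numbers. The log2 change was 1.15 (SE 0.27, adjusted p = 0.00601), or 0.71 (adjusted p = 0.0759) with library totals alone.

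In Torin 1, 3 and 4 Sdf2l1 stood at 81.7, 59.4 and 84.6 CPM. All 3 were below every stimulated library and within or below the naive range. The log2 change against stimulated cells was -1.73 (SE 0.31, adjusted p = 0.0148) and against naive cells -0.58 (SE 0.29, adjusted p = 0.162). The call against stimulated cells ended without Torin 1 (-1.79, adjusted p = 0.0579), Torin 3 (-1.59, adjusted p = 0.087) or all libraries of number 4 (-1.62, adjusted p = 0.112).

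Creld2 (ENSMUSG00000023272), an ER protein gene induced by ER stress, stood at 33.3, 27.9, 23.8 and 44.2 CPM in naive 1 to 4 and at 79.0, 67.5, 54.5 and 89.1 CPM in stimulated 1 to 4. The groups did not overlap, and the log2 change was 1.17 (SE 0.21, adjusted p = 0.00119), a call that held under all 19 alternatives. Torin 1, 3 and 4 held 48.3, 46.5 and 57.2 CPM, between the naive group and most stimulated libraries. As for Xbp1, the libraries of number 4 were the highest and those of number 3 the lowest in all 3 groups. The part of plasma cell transcripts in the Creld2 levels was not tested. Against stimulated cells the log2 change was -0.52 (SE 0.23, adjusted p = 0.239), lower in 3 of 3 numbers. Against naive cells it was 0.65 (SE 0.23, adjusted p = 0.0471), a call that ended under 13 of 19 alternatives. Among these were the fits without naive 1, 2 or 3 (0.66, 0.58 and 0.53), without stimulated 1 or 2 (both 0.65), without Torin 1, 3 or 4 (0.69, 0.71 and 0.66), and with only both groups (0.68).

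The lectin chaperones hold newly made glycoproteins in the ER until they are folded. Calr (ENSMUSG00000003814) encodes calreticulin, the soluble one, and stood at 119, 116, 82.3 and 92.6 CPM in naive 1 to 4 and at 143, 175, 141 and 166 CPM in stimulated 1 to 4. Every stimulated library was above every naive one, although the rise was the smallest of the 7 (log2 change 0.61, SE 0.16, adjusted p = 0.0106). In Torin 1, 3 and 4 it stood at 164, 136 and 187 CPM, with no change called against stimulated cells (0.06, SE 0.17, adjusted p = 0.921) and a rise against naive cells (0.66, SE 0.17, adjusted p = 0.0119). Scaling by library totals alone gave 0.12 for stimulated and 0.32 for Torin against naive cells, neither past the threshold. The Torin call also ended without the libraries of number 4 (0.62, adjusted p = 0.0784).

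Canx (ENSMUSG00000020368), the gene of calnexin, the membrane-bound one, had the smallest standard error of the 10. It stood at 37.7, 45.9, 36.7 and 42.4 CPM in naive 1 to 4, at 78.1, 70.2, 78.6 and 92.4 CPM in stimulated 1 to 4, and at 78.0, 69.3 and 95.1 CPM in Torin 1, 3 and 4. The naive libraries lay apart from both other groups, which overlapped. The log2 change was 0.97 (SE 0.14, adjusted p = 0.000288) in stimulated and 0.99 (SE 0.15, adjusted p = 0.000616) in Torin against naive cells, and 0.02 (SE 0.15, adjusted p = 0.978) in Torin against stimulated cells. Both rises stayed past the threshold under all 19 alternatives.

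The disulfide isomerases form and rearrange disulfide bonds. Pdia6 (ENSMUSG00000020571) stood at 80.2, 71.8, 47.1 and 48.7 CPM in naive 1 to 4, at 169, 139.7, 111 and 169.8 CPM in stimulated 1 to 4, and at 146, 113 and 171 CPM in Torin 1, 3 and 4. It rose the most of the 10 under stimulation (log2 change 1.25, SE 0.22, adjusted p = 0.00102) and also rose in Torin against naive cells (1.21, SE 0.24, adjusted p = 0.00256). Torin against stimulated cells gave -0.04 (SE 0.24, adjusted p = 0.964). Both rises stayed past the threshold under all 19 alternatives.

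Pdia4 (ENSMUSG00000025823) encodes a related isomerase, and stood at 22.4, 19.3, 16.0 and 19.4 CPM in naive 1 to 4 and at 37.1, 38.0, 24.7 and 49.9 CPM in stimulated 1 to 4, without overlap (log2 change 0.96, SE 0.23, adjusted p = 0.00591). With Torin it stood at 21.2, 17.97 and 29.4 CPM in numbers 1, 3 and 4. These were lower than the stimulated libraries of the same number in all 3 and overlapped both other groups, Torin 4 being above every naive library and above stimulated 3. The log2 change against stimulated cells was -0.71 (SE 0.25, adjusted p = 0.137), which passed without stimulated 3 (-0.91, adjusted p = 0.0487) and by DESeq2 (-0.74, adjusted p = 0.0328). Scaling by library totals alone gave 0.49 under stimulation (adjusted p = 0.182).

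Herpud1 (ENSMUSG00000031770) encodes a membrane protein of ER-associated degradation, the route by which misfolded proteins leave the ER. It stood at 39.7, 35.2, 33.9 and 56.4 CPM in naive 1 to 4 and at 60.1, 50.9, 44.1 and 34.5 CPM in stimulated 1 to 4. Number 4 went against the other 3 numbers. The log2 change was 0.20 (SE 0.23, adjusted p = 0.526), or 0.61 (adjusted p = 0.0309) without the libraries of number 4, and -0.27 with library totals alone. Torin 1, 3 and 4 held 14.1, 11.7 and 18.8 CPM, below every other library of the series. The log2 change was -1.67 (SE 0.26, adjusted p = 0.00853) against stimulated and -1.47 (SE 0.26, adjusted p = 0.00131) against naive cells. The first call ended without Torin 3 (-1.53, adjusted p = 0.0557), and the fall from naive cells stayed past the threshold under all 19 alternatives.

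**Figure D3:**
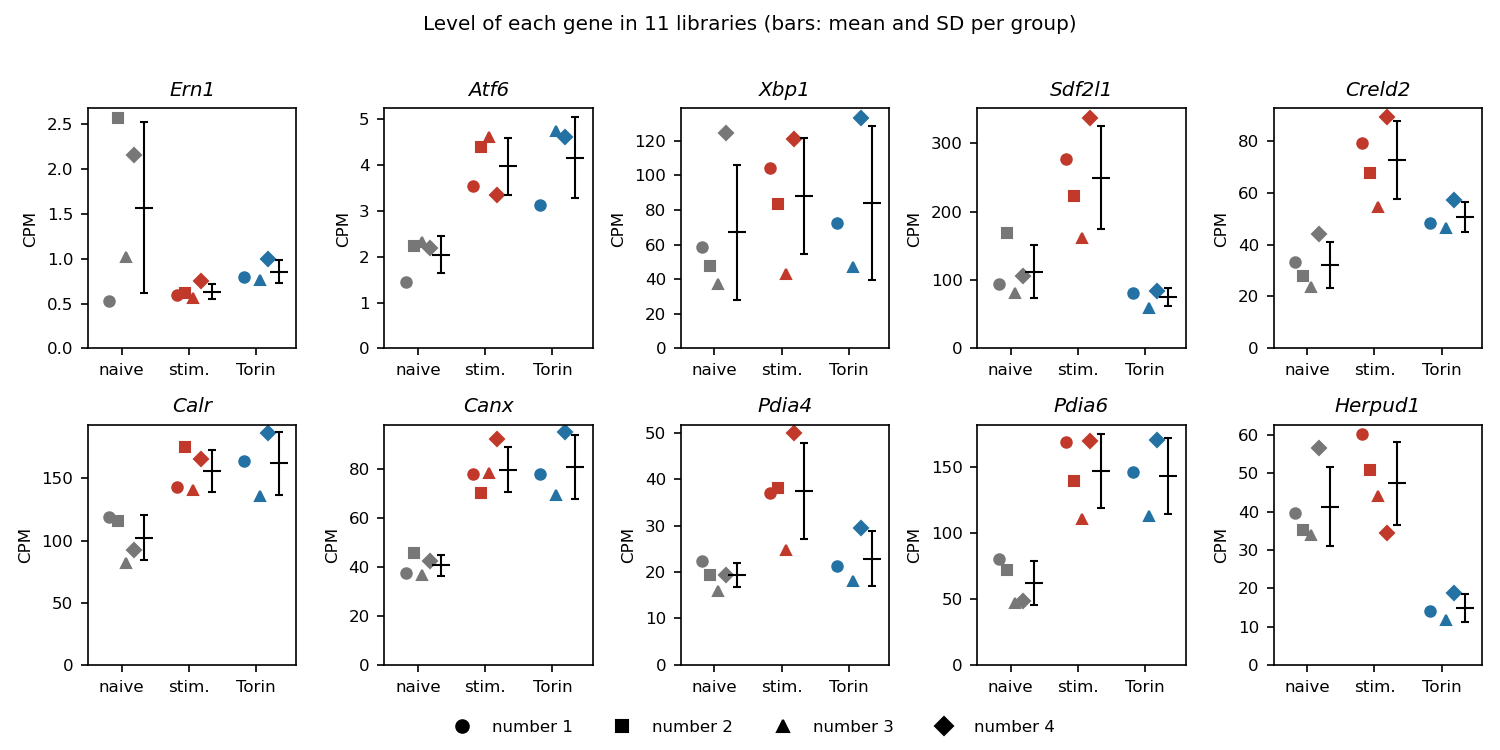
CPM after composition factors (vertical axes from 0) of the 10 genes in each library, with 1 symbol per replicate number and the mean and SD of each group beside the points. Torin libraries lie with the stimulated ones for Calr, Canx and Pdia6, within or below the naive range for Sdf2l1, across both ranges for Pdia4, and below both for Herpud1 (11.7 to 18.8 CPM).

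Torin-treated and naive cells differed in 6 of the 10 genes, with Atf6, Calr, Canx, Creld2 and Pdia6 higher and Herpud1 lower, where 32.2% of all genes were called (16.4% higher and 15.8% lower). Of the 8550 genes with a mean of at least 5 CPM, tested alone, 5120 were called, a larger share, 48.57% of these being higher. The median log2 change of the 10 was 0.49, against -0.18 for all genes. This comparison shares the naive libraries with the first and the Torin libraries with the second.

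Ratios of 2 genes within a library hardly depend on the scaling between libraries where both genes lie well above the pseudocount of 0.5 CPM. The log2 ratio of Sdf2l1 to Calr (from CPM + 0.5) was -0.33, 0.53, -0.02 and 0.18 in naive 1 to 4, 0.95, 0.34, 0.20 and 1.02 in stimulated 1 to 4, and -1.0, -1.19 and -1.14 in Torin 1, 3 and 4. Torin libraries lay below all others, with a mean difference from stimulated ones of -1.74 and from naive ones of -1.2. For Pdia6 to Pdia4 the Torin libraries, at 2.76, 2.62 and 2.52, lay above the stimulated ones at 2.18, 1.86, 2.15 and 1.76 and the naive ones at 1.82, 1.87, 1.53 and 1.3. The mean differences were 0.65 and 1.0. In the two-sided exact permutation test each of these 4 differences had p = 0.0571, the smallest that 3 libraries against 4 allow, and an adjusted p = 0.171 over the 15 comparisons made. No ratio could pass in this design, since 0.0571 is also the smallest adjusted p it allows. The test treated libraries as unpaired and did not use the replicate numbers.

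The ratio of calreticulin to calnexin, Calr to Canx, was 1.31 ± 0.24 in naive (SD, n = 4), 0.96 ± 0.23 in stimulated (SD, n = 4) and 1.0 ± 0.06 in Torin libraries (SD, n = 3) on the log2 scale. The difference of -0.35 under stimulation had an exact permutation p = 0.0857 (adjusted p = 0.184), and stimulated 2 lay with the naive libraries. In Torin libraries, at 0.97 to 1.07, it was below every naive one, at 1.12 to 1.65, with a difference of -0.31 (exact permutation p = 0.0571, adjusted p = 0.171). Xbp1 to Ern1 stood at 5.0 ± 0.86, 6.19 ± 0.58 and 5.84 ± 0.63 in the same order, and Xbp1 to Atf6 at 4.59 ± 0.80, 4.22 ± 0.84 and 4.07 ± 0.79 (SD, n = 4, 4 and 3 in the exact permutation tests). Their adjusted p-values ranged from 0.184 to 0.914 in these exact tests. Ern1 and Atf6 lie near the pseudocount, so these ratios depend on it. In stimulated against naive cells Xbp1 to Ern1 differed by 1.19 with 0.5 CPM added, by 1.42 with 0.1 CPM and by 0.83 with 2 CPM, and Xbp1 to Atf6 by -0.37, -0.49 and -0.13.

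**Figure D4:**
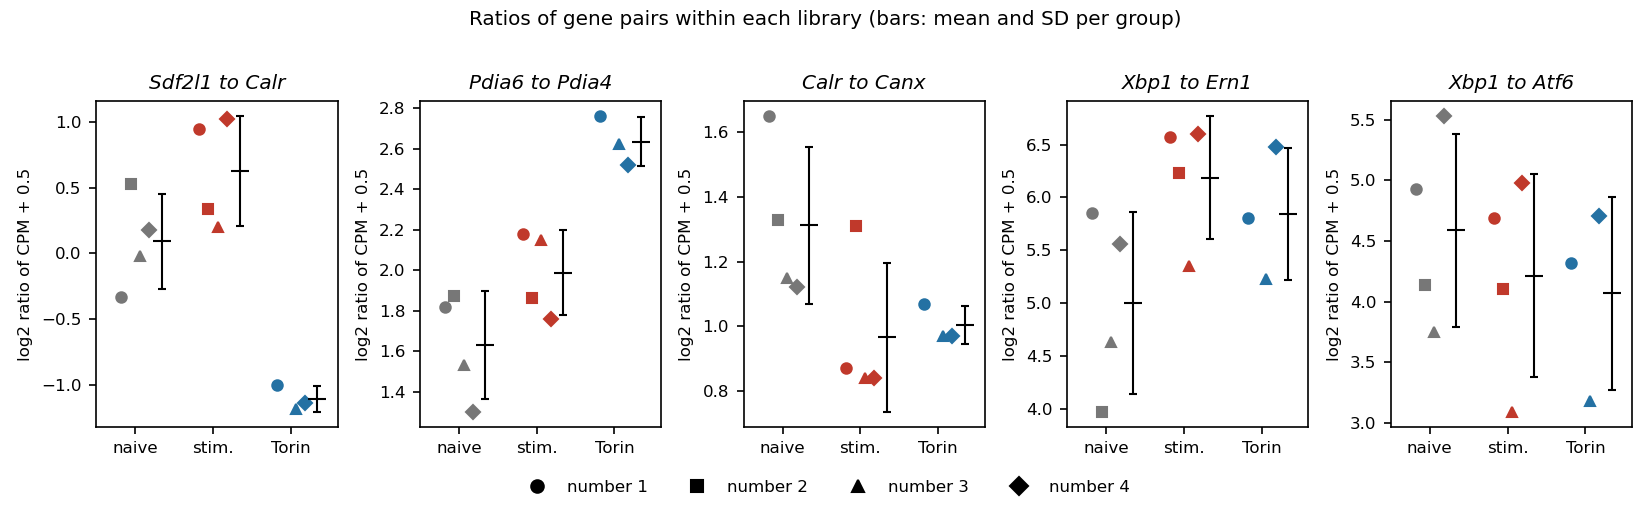
Log2 ratio of CPM + 0.5 (vertical axes, which do not start at 0) for 5 gene pairs in each library, with the mean and SD of each group beside the points. Torin libraries lie apart from both other groups for Sdf2l1 to Calr (below -0.99) and Pdia6 to Pdia4 (above 2.5), and overlap the naive range for Xbp1 to Ern1 and Xbp1 to Atf6.

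Around these 10 genes, 111 genes of the ER folding and export machinery were listed in 9 groups by role, and 110 of them were tested, 10 of these being the genes above. The lists, too, were made with earlier results of these data known, so their counts beside all genes are descriptions. Under stimulation 49 rose and 19 fell, with a median log2 change of 0.41, and with library totals alone 26 rose and 30 fell. With Torin against stimulated cells 1 rose and 10 fell, with a median of -0.17. DESeq2 called 3 higher and 19 lower there, and 5 were lower without stimulated 2, 2 without Torin 1, 1 without Torin 3, 4 without Torin 4, 2 without the libraries of number 4 and 4 without those of number 2. Of all genes tested, 19.2% rose and 20.2% fell in the first comparison and 2.32% rose and 2.3% fell in the second. These shares include many genes of low count. Among the 8550 genes with a mean of at least 5 CPM, tested alone, 5881 were called in the first comparison and 1378 in the second. Those are larger shares, with 47.2% and 49.64% of the calls higher, so the shares of all genes overstate the contrast with well-expressed genes. Set against these larger shares, the listed genes were not called more often, both directions together, in either comparison.

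Of 16 genes of translocation and signal peptidase, which bring new proteins into the ER, 13 rose and 2 fell under stimulation. Sec61g, a subunit of the channel, rose from 405.9 ± 109 to 1594 ± 407 CPM (SD, n = 4 each), while the signal peptidase subunit gene Sec11c fell from 322 ± 45.7 to 140.1 ± 21.5 CPM. With Torin 3 of the 16 were lower than in stimulated cells, Sec61g at 738 ± 48.0 CPM, Sec11c at 76.6 ± 16.0 CPM (SD, n = 3) and Ssr2, where DESeq2 called 6 lower. Of 7 oligosaccharyltransferase genes, which attach sugar chains, 5 rose under stimulation, the largest rise being that of Rpn1, from 43.5 ± 13.2 to 123 ± 27.9 CPM. Ostc, another of the 7, fell with Torin by 0.53 on the log2 scale.

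Of 14 ER chaperones and cofactors, 9 rose and 2 fell under stimulation. Hspa5, the gene of the main ER chaperone BiP, rose from 71.2 ± 19.1 to 288 ± 62.2 CPM (SD, n = 4 each; log2 change 2.01, SE 0.26, edgeR adjusted p = 0.000126), and stood at 199.6 ± 58.0 CPM with Torin (SD, n = 3; -0.53 against stimulated, SE 0.27, edgeR adjusted p = 0.317). Sil1, which reloads BiP with ATP, rose from 12.3 ± 2.58 to 53.2 ± 6.97 CPM, and Hsp90b1, an ER chaperone of the HSP90 family, from 52.1 ± 4.84 to 112.5 ± 19.02 CPM. Dnajb9, a cofactor induced by XBP1, stood at 11.8 ± 4.04 and 14.5 ± 2.103 CPM without passing (0.31, edgeR adjusted p = 0.395). The 2 that fell were Sdf2 and Dnajc10, a disulfide reductase, from 7.92 ± 2.23 to 5.01 ± 0.55 CPM. Sdf2l1 was the only one of the 14 called lower with Torin by edgeR, where DESeq2 called 2.

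Of 6 genes of the glycoprotein folding cycle, 4 rose and Uggt1, the sensor that sends misfolded glycoproteins back to the lectins, fell by 0.46 on the log2 scale. Mogs, a glucosidase, rose from 33.8 ± 15.5 to 106.5 ± 17.6 CPM. Of 11 genes of disulfide formation, 5 rose and 1 fell. The oxidases went apart, with Ero1l rising from 11.7 ± 5.40 to 39.0 ± 1.12 CPM and Ero1lb falling from 8.31 ± 1.35 to 1.80 ± 0.24 CPM (SD, n = 4 each). Ero1l stood at 15.9 ± 4.52 CPM with Torin (SD, n = 3; -1.3 against stimulated, edgeR adjusted p = 0.0687).

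Of 20 genes of ER-associated degradation, 2 rose and 7 fell under stimulation. Edem1, which targets misfolded glycoproteins for disposal, fell from 91.3 ± 11.4 to 41.5 ± 5.83 CPM, and Sel1l and Os9, which recognise such proteins for disposal, were among the others that fell. Vcp, the ATPase that pulls substrates out of the membrane, and Derl2 rose. Herpud1 was the only one of the 20 called lower with Torin by edgeR, where DESeq2 called 2 lower and 1 higher. Of 19 genes of ER-Golgi transport, 5 rose and 2 fell under stimulation, shares near or below the 19.2% and 20.2% of all genes. Sar1a, which starts the COPII coat, rose from 119 ± 10.3 to 406.0 ± 43.3 CPM. The largest fall of the 19 was that of Sec24d, at a low level, from 2.59 ± 0.61 to 0.37 ± 0.18 CPM. The retrieval receptor gene Kdelr1 fell from 46.2 ± 10.6 to 22.7 ± 1.91 CPM (SD, n = 4 each).

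Of 9 tested sensors and factors, 2 rose (Atf6 and Rtcb, the ligase that joins the cut Xbp1 RNA) and 3 fell under stimulation, near the shares of 19.2% and 20.2% among all genes, and the fall of Ern1 was lost in 14 of 18 alternatives. Creb3, an ER-bound factor related to ATF6, fell from 49.9 ± 10.3 to 12.7 ± 3.53 CPM, and Mbtps1, the protease that cuts ATF6 first, from 16.5 ± 1.57 to 9.92 ± 1.93 CPM (SD, n = 4 each). With Torin, Mbtps1 stood at 17.2 ± 3.66 CPM (SD, n = 3; log2 change 0.79, SE 0.19, edgeR adjusted p = 0.0444 against stimulated), a call lost under 14 of 19 alternatives, among them 10 of the 11 fits with 1 library left out, all but the one without stimulated 3 (adjusted p over the alternatives 0.00456 to 0.218).

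In the list named PERK branch 4 of 8 genes (Trib3, Atf4, Atf3 and Chac1) rose under stimulation and Eif2ak3 fell. With Torin, 4 of the 8 fell against stimulated cells. Of all genes tested 19.2% rose and 20.2% fell in the first comparison, and 2.3% fell in the second. The name is that of the list only, and PERK activity was not measured. Atf4 stood at 70.1 ± 10.5, 207 ± 49.96 and 113 ± 14.1 CPM in naive, stimulated and Torin libraries, Chac1, a glutathione-degrading enzyme gene, at 2.81 ± 2.27, 33.3 ± 13.9 and 1.79 ± 0.55 CPM, and Ddit3, the gene of the factor CHOP, at 30.1 ± 4.44, 23.9 ± 8.08 and 9.83 ± 1.48 CPM (SD, n = 4, 4 and 3). Trib3, a pseudokinase gene downstream of ATF4, was the other that fell, at 13.8 ± 4.35, 31.3 ± 9.86 and 1.11 ± 0.42 CPM in the same order. Atf3 went the other way, at 2.35 ± 1.98, 27.5 ± 3.55 and 42.4 ± 5.29 CPM (SD, n = 4, 4 and 3). Every Torin library was above every stimulated one for Atf3, without passing (log2 change 0.63, SE 0.63, edgeR adjusted p = 0.657). An overlapping gene model carries the symbol Ddit3 as well, so the counts of that gene are uncertain. Eif2ak3 itself fell under stimulation from 5.20 ± 2.20 to 1.295 ± 0.32 CPM (SD, n = 4 each).

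**Figure D5:**
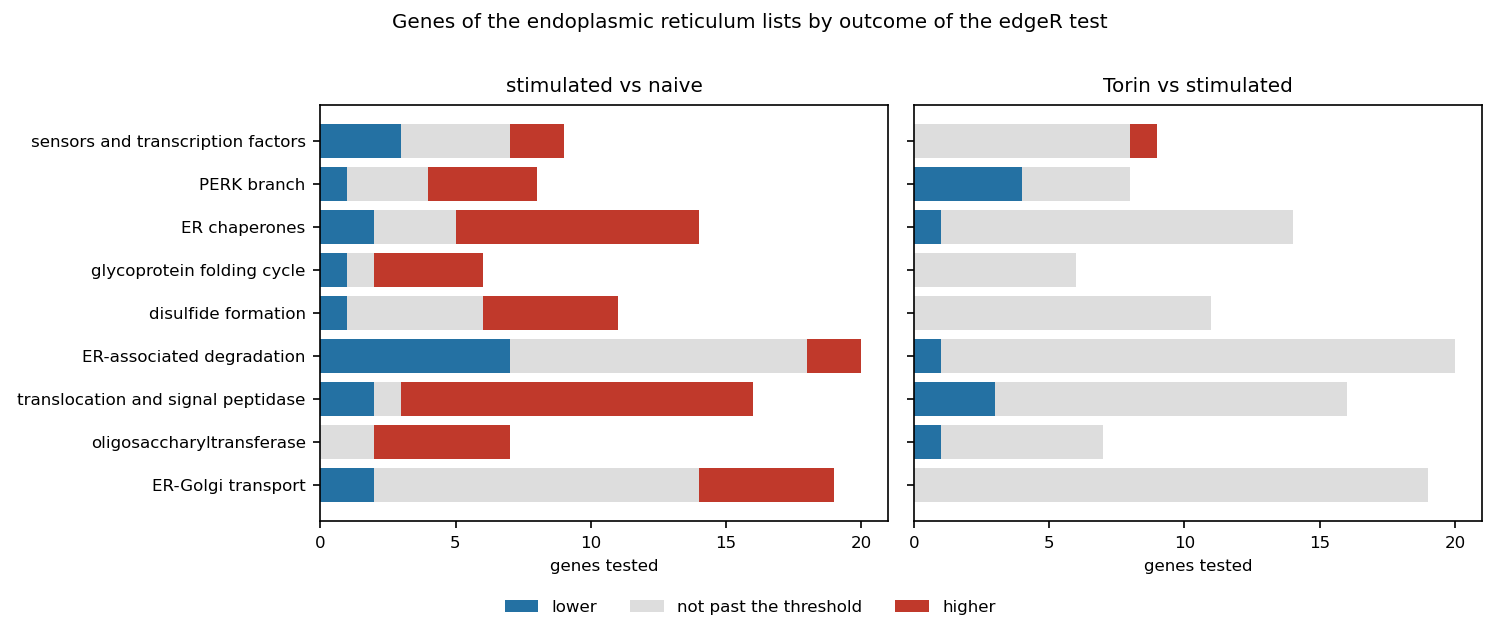
Number of tested genes (horizontal axis) in 9 ER lists that were lower, not past the threshold or higher by edgeR, for stimulated against naive cells (left) and Torin against stimulated cells (right). Under stimulation 13 of 16 translocation genes are higher and 7 of 20 degradation genes lower, and under Torin the PERK branch has 4 of 8 lower and translocation 3 of 16 (by DESeq2 4 and 6).

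Of the 89 listed genes with a promoter window, 11 held an ERSE or ERSE-II, among them Hspa5, Hsp90b1, Dnajb11, Dnajc3, Derl3 and Syvn1 beside the 5 shown above. Under stimulation 7 of these 11 rose (median log2 change 0.76), and of the 78 with neither element 31 rose and 14 fell (median 0.34). Of all genes tested 19.2% rose and 20.2% fell. Calr, Canx, Creld2 and Pdia6, whose rises are given above, are among the 7. In Torin against naive cells 6 of the 11 rose and 2 fell, and 20 of the 78 rose and 8 fell, against 16.4% and 15.8% of all genes. The part of the elements in these counts was not tested. With Torin against stimulated cells 1 of the 11 fell, Herpud1, a gene with an ERSE-II (median -0.17), and of the 78, 1 rose and 6 fell (median -0.09). Of all genes tested 2.32% rose and 2.3% fell there. Sdf2l1, which also fell with Torin, held neither element in its window.

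Across the 11 libraries, the log2 CPM of Calr and Pdia6 followed each other most closely among the 45 pairs of the 10 genes (Pearson r = 0.95), followed by Pdia6 and Canx (r = 0.92) and Calr and Canx (r = 0.89), and Ern1 and Pdia6 had the lowest r, -0.57. Among 5621 named genes with at least 10 CPM on average, those most like Xbp1 were Ei24 (r = 0.906), Phlda1 (r = 0.882) and Eid2 (r = 0.859), those most like Sdf2l1 were Eno1 (r = 0.968), Coprs (r = 0.964) and Ap1s1 (r = 0.953), and those most like Calr were Sephs1 (r = 0.982), Pmpca (r = 0.975) and Ywhae (r = 0.966). Eno1 has near-identical copies in the genome, so its reads may be split. These values describe 11 libraries that share their group, depth and source, and carry no test.

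Counts in transcripts that are not annotated as protein coding were a small part of each gene. Their share could be computed for 8 of the 10 genes, and the group means lay between 0.65 and 4.34% in Ern1 and between 0 and 2.38% in the other 7. None of the 24 differences between groups passed an exact permutation test (smallest adjusted p = 0.549, with 0 of 24 below an unadjusted 0.05). The p-value could not fall under 0.0286 for 4 libraries against 4 or 0.0571 for 3 against 4. With these limits no difference could pass after adjustment, and those of 3 against 4 could not fall below an unadjusted 0.05. The tests therefore do not show that the shares were unchanged. Canx had a second protein-coding transcript (ENSMUST00000179865) with 3.8 ± 2.0% of its counts in naive, 8.5 ± 2.4% in stimulated (SD, n = 4 each) and 7.4 ± 3.4% in Torin libraries (SD, n = 3), which was not tested.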

How the data were processed

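Gene and transcript tables of 11 libraries held estimated counts, as deposited by the authors and all in whole numbers. Per the submitters' processing notes, the build was mm39, and the tools, whose roles are not given, include StringTie 2.1.0 and STAR 2.7.1a. SAMtools 1.9, R 4.0.5 and also DESeq2 1.30.1 are named too. Per the labels, a SMARTer kit for small amounts of polyadenylated RNA was used, and strand is not stated. The columns named Control were taken as the stimulated libraries, the only group of the labels not named naive or Torin. Symbols came from GENCODE M21 (GRCm38) by identifier without version (94.0% of genes). Promoters are from RefSeq on GRCm38.p6, so no coordinates on mm39 are given. Columns without a sample numbered 0. The meaning of the replicate numbers and of the letters before the library numbers is not given in the sources used here.

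Genes were tested with edgeR 4.0.16 (quasi-likelihood, TMM factors, filterByExpr with a minimum count of 10, all 11 libraries in 1 model of group means, Benjamini-Hochberg over 22238 genes). The standard error is the log2 change divided by the square root of F. CPM use the TMM library sizes. On simulated data with 200 changed genes, the steps recovered 6% of 2-fold and 57% of 4-fold changes in stimulated against naive (19193 genes) and 7% and 69% in Torin against stimulated cells (19220 genes), with 3 and 7 false calls. The simulation fitted 2 groups alone and changed few genes, while 39.5% and 4.62% of genes were called in the data. Its adjusted threshold was therefore stricter, and its recovery shares do not carry over to the data. The fitted common biological coefficient of variation was 0.79, so a missed call is no sign of no change. No pair of libraries within a group was a duplicate (lowest chi-square per gene 286.1). Pairs from different groups were not checked.

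Replicate numbers were checked as pairs. Deviations from group means correlated by 0.15 to 0.29 in the 4 pairs of naive and stimulated libraries. In the 3 pairs of stimulated and Torin libraries they correlated by 0.11 to 0.31. Libraries of unlike number correlated by -0.13 to 0.07 and by -0.19 to 0.07 in these comparisons. The data thus pair these by number, while the labels give numbers and state no pairing. In naive and Torin libraries the deviations correlated by 0.08 to 0.28 at the same number and by -0.18 to 0.07 at unlike numbers. Fits without the block were kept as the main ones because the labels state no pairing, and the fits with it are given as an alternative. Ratios and transcript shares were compared by exact permutation (scipy 1.17.1). This test treated libraries as unpaired, so its p-values do not use the replicate numbers. The genes named are the 10, 6 fixed pathway genes, the largest rise and fall called in each pathway list, and the 3 genes most like Xbp1, Sdf2l1 and Calr. The largest changes of the lists were named for stimulated against naive and Torin against stimulated cells. Those in Torin against naive cells were not all named. Further list members were named after their values were seen. The members and lists were chosen with earlier results of these data known. Alternatives were DESeq2 1.42.0, library totals alone, no filter, a mean of at least 5 CPM, the block, only both groups, each library left out, and numbers 2 or 4 left out.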

Additional observations from a re-analysis of the deposited data

Results flagged for a closer look

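In 30 checks of groups of 4 libraries (10 genes and 5 ratios in naive and stimulated cells), 2 values lay apart from the other 3 of their group by more of the range than Dixon's 95% limit for 4 values, where chance gives about 1 in 20. Atf6 in naive 1, at 1.44 CPM, was below the other naive libraries at 2.20 to 2.32 CPM. The log2 ratio of Calr to Canx in stimulated 2 was 1.315, above 0.84 to 0.87 in the other stimulated libraries.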

How the results depend on the processing

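Library totals alone shifted most counts: against naive cells 3 of the 10 genes rose in stimulated and 3 in Torin cells, and of the listed pathway genes 26 rose and 30 fell in stimulated and 14 rose and 20 fell in Torin cells, with 2 rises in Torin against stimulated cells. That scaling also turned Xbp1 (-0.04) and Herpud1 (-0.27) in stimulated and Pdia4 (-0.1) in Torin against naive cells, and Xbp1 (0.05) and Pdia6 (0.08) in Torin against stimulated cells. With it, genes called higher made up 28.48% of all calls in stimulated against naive cells, against 48.69% with composition factors, 67.58% against 50.15% in Torin against stimulated cells, and 33.41% against 50.93% in Torin against naive cells. With the replicate number as a block, 7 of the 10 genes rose and 0 fell in stimulated against naive cells, the call of Ern1 being lost (-1.11), and no other call among the 10 changed in the paired comparisons. The fall of Ern1 was also lost, leaving 0 lower, without the filter, at a mean of at least 5 CPM (where Ern1 and Atf6 are not tested, and 3 genes rose in Torin against naive cells), with only both groups, and without numbers 4 or 2. Leaving out 1 library gave 0 to 1 lower in that comparison, 0 to 3 of the 10 lower in Torin against stimulated cells (1 without number 4) and 1 to 2 lower in Torin against naive cells. Pathway genes lower in stimulated cells numbered 12 without number 4 and 12 without number 2. In Torin against stimulated cells the pathway rises were 0 without the filter, with only both groups, and without numbers 4 or 2, were 2 at a mean of 5 CPM and 3 by DESeq2, and 0 to 2 with 1 library left out. The falls were 2 without number 4, 4 without number 2, 19 by DESeq2 and 1 to 11 with 1 library left out.

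Changes near 0 in Torin against stimulated cells turned sign. Without number 4 they were -0.07 for Atf6, -0.01 for Calr and -0.02 for Canx. Canx also gave -0.04 without number 2, -0.01 at a mean of 5 CPM and -0.01 by DESeq2. With 1 library left out, Xbp1 ranged from -0.54 to 0.22, Atf6 from -0.03 to 0.24, Pdia6 from -0.2 to 0.11, Calr from -0.04 to 0.17 and Canx from -0.1 to 0.12, and Xbp1 in Torin against naive cells from -0.07 to 0.81. Of the log2 ratios, Xbp1 to Atf6 ranged from -0.52 to 0.3 and Calr to Canx from 0.0 to 0.15 in Torin against stimulated cells, and Xbp1 to Atf6 from -0.65 to 0.0 in stimulated against naive cells. Differences in non-coding share (percentage points) turned too with 1 library left out. In Torin against naive cells they ranged from -0.75 to 0.86 for Pdia6, from -1.96 to 0.22 for Atf6, from -0.11 to 0.94 for Xbp1 and from 0.0 to 0.1 for Pdia4. In Torin against stimulated cells they ranged from -0.49 to 1.15 for Atf6, from -0.01 to 0.1 for Pdia4 and from -0.2 to 1.41 for Pdia6. In stimulated against naive cells they ranged from -0.07 to 0.25 for Calr and from 0.0 to 0.01 for Pdia4. Without number 4 they were -0.11 for Herpud1 and -0.29 for Pdia6 in Torin against stimulated and -0.77 for Pdia6 in Torin against naive cells. The cause of these differences was not tested. Estimated counts give no counting error, so depth limits could not be computed. The planned share of spliced Xbp1 was not run, since no annotated transcript held that form.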
